A study of Mus musculus with 6 samples.

Results

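The genes described here are 46 components of the Wnt and Notch pathways among the 13026 genes measured in mouse kidney after ischemia and reperfusion. They were chosen by symbol, as all listed genes of the Wnt, frizzled, dishevelled, axin, Sfrp, Dkk, Notch, Jagged, Delta-like, Hes, Hey and Tcf7 families, with Lrp5, Lrp6, Ctnnb1, Apc, Rbpj, Maml1 and Porcn. Of these, 33 belong to the Wnt side and 13 to the Notch side. Lef1, also named in the rule, was not analysed here. Of the 6 kidney libraries, 3 came from LIGHT-/- adult male mice, which lack the TNF family cytokine LIGHT (TNFSF14), and 3 from wild type males. Both groups were on a C57BL/6J background, and all kidneys went through bilateral ischemia of 32 min and reperfusion of 24 h. Every kidney was therefore injured, and no level before injury enters the comparison. The knockout is given in the labels without a cell type or promoter, and no number of animals per library is given. Tnfsf14 itself was not analysed here, so the genotype was not checked on the targeted gene.

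Wnt proteins are lipid-modified signals that bind frizzled receptors together with the coreceptors Lrp5 and Lrp6. Binding holds back a destruction complex built on axin and APC, so that beta-catenin accumulates and acts with TCF/LEF factors in the nucleus. Notch receptors are cleaved after contact with Jagged or Delta-like ligands on a neighbouring cell, and the freed intracellular part joins RBPJ and a Mastermind protein to turn on HES and HEY repressors. In the kidney, Wnt9b and Wnt4 drive nephron formation in the embryo, Wnt7b is a signal of the collecting duct, and both pathways are known to be active again after tubular injury.

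Levels are in FPKM, read fragments corrected for transcript length and for the size of the library, and the read depth behind them is unknown. FPKM summed to between 299667 and 318493 per library. Knockout library 3 stood apart, with a correlation of 0.934 to 0.956 with the other libraries across genes, against 0.976 to 0.989 among the other 5. Its collecting duct markers, 7 of 7, were the highest of the 6 libraries and summed to 483.4 FPKM, of which Aqp2 made up 324.7. The sums were 90.18 and 141.5 in the other knockout libraries and 94.86 to 165.8 in wild type libraries. Of all 13026 genes, 3925 were highest in knockout library 3. So were 8 of 9 proximal tubule, 5 of 7 thick ascending limb and distal tubule and 4 of 5 intercalated cell markers. Among podocyte, endothelium and fibroblast markers, 1 of 6, 4 of 9 and 2 of 7 were highest there. Of 6 adipocyte markers, 6 were highest in knockout library 3. Adipoq, which encodes adiponectin, stood at 13.1 FPKM there, at 0.0659 and 0 in the other knockout libraries and at 0 in all wild type libraries. Adipoq and Plin1, with wild type means of 0 and 0.022 FPKM, are among the 13026 genes through knockout library 3 alone. That both were highest there is therefore no separate observation. Fabp4 and Lpl, present in every library, stood there at 1.72 and 1.97 times the highest other library. Tubular injury markers summed to 473 FPKM in knockout library 3, against 1572 and 1455 in the other knockout libraries and 1792 to 1969 in wild type libraries. Proximal tubule markers were present in every library, as kidney tissue should show. They summed to 1018, 1120 and 1886 FPKM in knockout and 815.1, 833.1 and 689.9 FPKM in wild type. Of these, 8 of 9 were higher at an unadjusted limma p under 0.05, beside 4.34% of all genes tested, and none passed adjustment. Myeloid markers summed to 83.85, 97.63 and 84.96 FPKM in knockout and 107.4, 137.8 and 214.1 FPKM in wild type. Of these 7 markers, 2 (Adgre1 and Csf1r) had a log2 fold change above 0 and 5 below. At an unadjusted limma p under 0.05, 2 were lower, beside 3.74% of all genes tested, and none passed adjustment. The part of these differences in the levels of Wnt and Notch genes was not tested.

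No Wnt or Notch gene passed the test over all genes. The ligands Wnt5b and Wnt9a and the HES family gene Hes6 were the members with the smallest p among those higher in knockout kidneys, and Apc had the smallest p among those lower. Of the 46 members, 45 had a mean of at least 0.5 FPKM over the 6 libraries and were tested. No member had a limma adjusted p under 0.05, and the adjusted p ranged from 0.592 to 0.996. Among all 12836 genes tested, 15 passed, which is 0.117%. At an unadjusted p under 0.05 there were 4 members, Wnt5b, Wnt9a and Hes6 higher and Apc lower in the knockout. These are 8.89% of the members, beside 8.08% of all genes tested, so the members' share is near the background. By direction, 3 members (6.67%) were higher and 1 (2.22%) was lower, while 4.34% of all genes were higher and 3.74% were lower at that threshold. The count was 3 without knockout library 3 (Wnt5b, Fzd6 and Apc), beside 7.16% of all genes, and 1 without knockout library 2, beside 6.83%. It was 2 without wild type library 1, beside 6.89% of all genes, and 2 without wild type library 2, beside 4.7%.

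The 3 values of a group lay wholly above or below those of the other in 5 members, 4 higher (8.89%) and 1 lower (2.22%) in the knockout. Together that is 11.1% of the members, beside 16.6% of all genes tested, of which 7.76% were higher and 8.8% lower. Without knockout library 3 there were 8 such members of 44, beside 23.9% of all genes, because smaller groups separate more readily. The median log2 fold change was -0.02 over the members and -0.01 over all genes, with 21 members (46.7%) above 0 and 24 below, beside 47.9% of all genes above 0. For 28 of the 45 members the 95% interval of the log2 fold change lay within 0.5 of 0, beside 7120 of the 12836 genes tested. These intervals are of log2(FPKM + 1), a scale that understates the change of low genes.

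**Figure D1:**
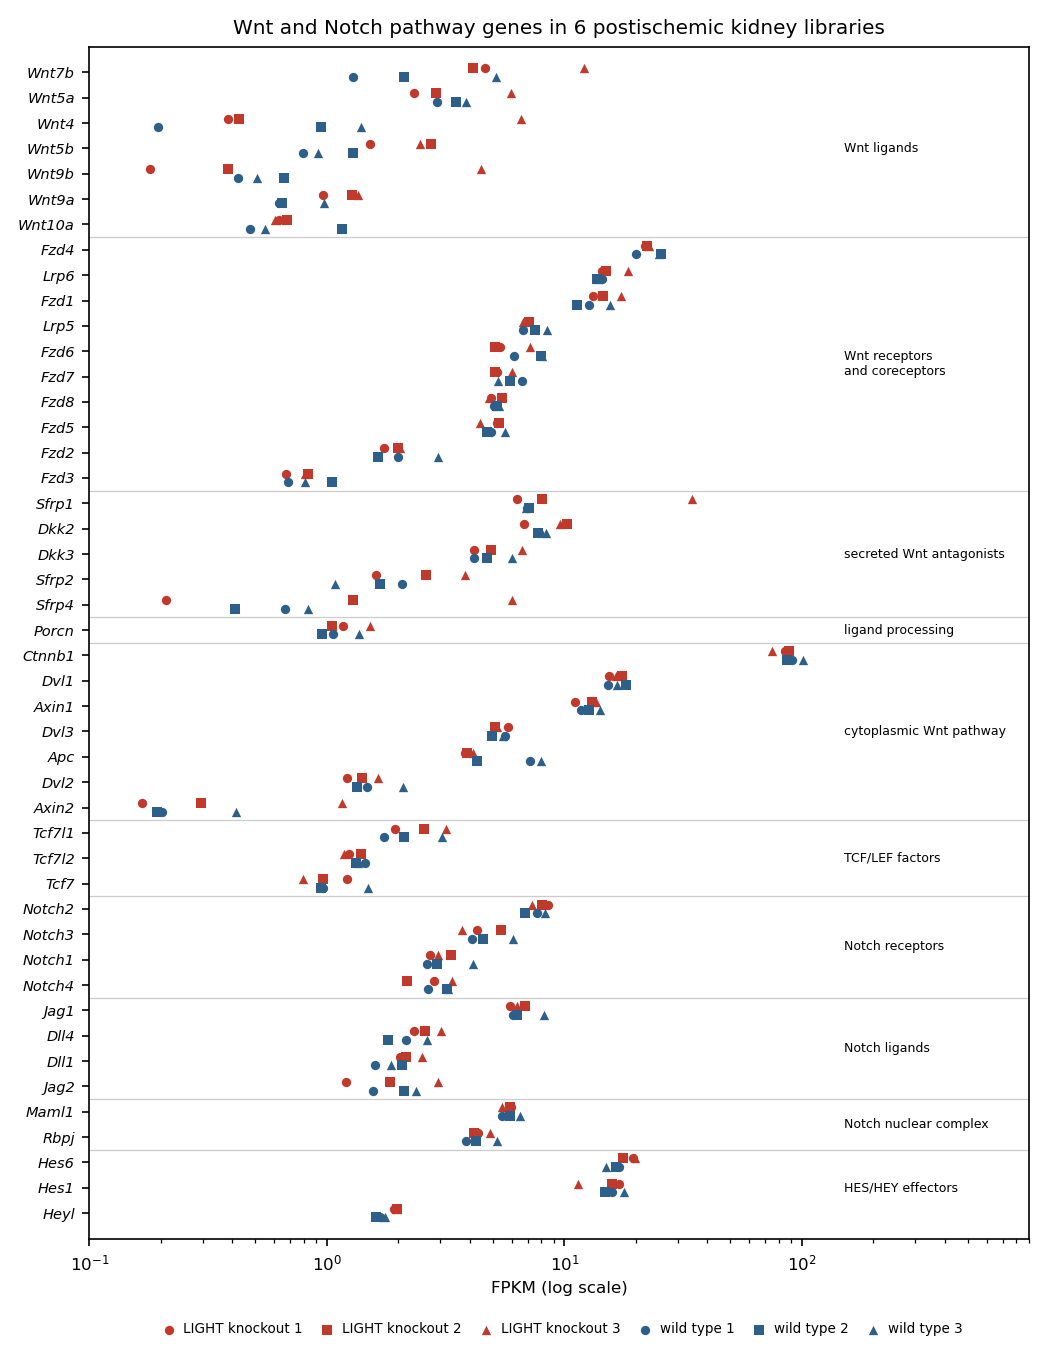
FPKM of the 46 members (horizontal log axis) in 3 LIGHT knockout libraries (red) and 3 wild type libraries (blue), 1 point per library, grouped by role. Levels run from below 1 FPKM for several Wnt ligands to 74.9 to 101 FPKM for Ctnnb1, and knockout library 3 (red triangle) lies far to the right for Wnt4, Wnt9b, Sfrp1 and Sfrp4.

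The Wnt ligands were the role with the largest spread. Of 7 ligands, 6 had a positive log2 fold change, with a median of 0.44, but in 3 of them knockout library 3 was over 2 times any other library. Without that library 6 ligands were tested, 3 above 0 and 3 below, with a median of 0.12.

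Wnt5b, a ligand best known for signalling that does not use beta-catenin, had the smallest p of all members. Wnt5b had 1.51, 2.75 and 2.46 FPKM in the knockout libraries, against 0.790, 1.29 and 0.915 FPKM in the wild type libraries. Every knockout library was above every wild type library. The group means were 2.24 ± 0.647 FPKM in knockout and 1.00 ± 0.262 FPKM in wild type (SD, n = 3 each). On the log2(FPKM + 1) scale the difference was 0.68 ± 0.18 (SE), and its limma p was 0.00830 before and 0.592 after adjustment over all genes tested. The 95% interval of the log2 difference was 0.24 to 1.13, and without knockout library 3 the difference was 0.63 with a limma p of 0.0225 before and 0.657 after adjustment. Wnt9a had 0.961, 1.27 and 1.35 FPKM in the knockout libraries, against 0.627, 0.645 and 0.969 FPKM in the wild type libraries. The lowest knockout value lay just below the highest wild type value. Its log2 difference was 0.33 ± 0.13 (SE), and its limma p was 0.0451 before and 0.592 after adjustment. Without knockout library 3 the difference of Wnt9a was 0.28, with a limma p of 0.103 before and 0.748 after adjustment.

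The promoters of Wnt5b, Wnt9a and Hes6 are shown because these 3 members were higher in the knockout at an unadjusted p under 0.05 with all 6 libraries. Each window holds 250 bases before and 50 after a RefSeq start on GRCm38.p6, all but that of Wnt9a on the minus strand, written 5′ to 3′ along the gene. Capitals mark TGGGAA, the core of the RBPJ site, CTTTGA, the core of the TCF/LEF site, and CACGCG, a site bound by HES proteins, each on either strand, so that TTCCCA marks the RBPJ core on the opposite strand. Wnt5b has 3 starts in the table, at chr6:119544298-119544597, chr6:119467162-119467461 and chr6:119449337-119449636. The windows of Wnt9a and of the upstream start of Hes6 are chr11:59306680-59306979 and chr1:91413989-91414288.
Wnt5b upstream start: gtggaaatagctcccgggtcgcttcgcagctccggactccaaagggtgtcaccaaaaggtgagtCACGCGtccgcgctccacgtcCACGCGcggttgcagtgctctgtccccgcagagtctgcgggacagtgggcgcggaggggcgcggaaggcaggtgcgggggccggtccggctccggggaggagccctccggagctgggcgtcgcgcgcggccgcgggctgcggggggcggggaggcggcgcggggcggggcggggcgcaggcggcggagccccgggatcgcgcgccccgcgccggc
Wnt5b middle start: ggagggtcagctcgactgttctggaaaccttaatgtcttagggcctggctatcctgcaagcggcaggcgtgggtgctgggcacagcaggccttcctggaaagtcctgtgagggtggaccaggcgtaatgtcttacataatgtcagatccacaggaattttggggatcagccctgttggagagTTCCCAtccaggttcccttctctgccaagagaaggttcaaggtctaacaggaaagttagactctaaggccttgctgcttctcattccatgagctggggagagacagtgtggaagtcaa
Wnt5b downstream start: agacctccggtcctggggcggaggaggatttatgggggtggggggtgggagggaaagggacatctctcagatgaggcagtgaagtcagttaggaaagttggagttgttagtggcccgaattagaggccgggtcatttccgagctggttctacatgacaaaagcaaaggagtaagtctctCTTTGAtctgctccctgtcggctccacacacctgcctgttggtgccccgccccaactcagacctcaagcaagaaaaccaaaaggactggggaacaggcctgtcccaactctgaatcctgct
Wnt9a: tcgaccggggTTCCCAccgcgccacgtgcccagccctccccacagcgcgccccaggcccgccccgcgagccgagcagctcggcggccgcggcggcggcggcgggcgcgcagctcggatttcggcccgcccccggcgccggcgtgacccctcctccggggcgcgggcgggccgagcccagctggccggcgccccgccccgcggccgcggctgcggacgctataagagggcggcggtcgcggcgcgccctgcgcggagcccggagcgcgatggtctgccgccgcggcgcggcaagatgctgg
Hes6 upstream start: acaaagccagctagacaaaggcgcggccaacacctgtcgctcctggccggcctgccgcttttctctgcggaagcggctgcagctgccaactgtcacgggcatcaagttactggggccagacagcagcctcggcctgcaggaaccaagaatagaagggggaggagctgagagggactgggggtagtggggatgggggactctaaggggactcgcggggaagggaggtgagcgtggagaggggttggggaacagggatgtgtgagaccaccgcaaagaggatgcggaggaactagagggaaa

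The upstream Wnt5b window held CACGCG at -186 and -165, the middle window held the RBPJ core at -68, and the downstream window held the TCF/LEF core at -71, counted from the start. The Wnt9a window held the RBPJ core at -240, and neither Hes6 window held any of the 3 motifs. Promoter sequences were matched for 29 of the 46 members, in 37 windows. The RBPJ core occurred in 6 of the 37 (16.2%), beside 25.6% of 32851 promoters of the same length. The TCF/LEF core occurred in 4 (10.8%), beside 16.0%. CACGCG occurred in 10 of the 37 (27.0%), beside 9.27% of all promoters. These are counts of windows and not of separate sites, because both Ctnnb1 windows overlap and hold the same CACGCG, and a pair of overlapping Rbpj windows holds the same RBPJ core. The median GC content was 67.0% in the members' windows and 52.7% in all windows. None of these 3 motifs contains another, and a match describes letters and not binding.

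Wnt7b and Wnt5a were the most abundant ligands in 5 of the 6 libraries, and Wnt4 stood between them in knockout library 3. Wnt7b had 4.61, 4.11 and 12.05 FPKM in the knockout libraries, against 1.28, 2.11 and 5.14 FPKM in the wild type libraries. The groups overlap, because wild type library 3 lies above knockout libraries 1 and 2. The log2 fold change of Wnt7b was 1.03 ± 0.47 (SE) with a limma adjusted p of 0.595, and 0.61 without knockout library 3. Wnt5a, a ligand of the same kind as Wnt5b, had 2.34, 2.87 and 5.99 FPKM in the knockout libraries, against 2.91, 3.51 and 3.85 FPKM in the wild type libraries. Both knockout libraries other than library 3 lay below all wild type libraries, and the log2 fold change changed sign, at 0.03 with all libraries and -0.29 without knockout library 3. As a share of the summed FPKM of the 7 ligands, Wnt5a made up 22, 23.0 and 17.9% in knockout libraries and 43.4, 34.0 and 28.9% in wild type libraries. The 3 knockout shares lay below the 3 wild type shares, while Wnt7b took 43.4, 32.9 and 36.0% in knockout and 19.1, 20.4 and 38.6% in wild type. A share depends on the other ligands as well, and the levels of Wnt5a overlapped between genotypes. Wnt5a was not alone in this, because the shares of Dll4 among the Notch ligands also separated the genotypes, with knockout higher. Shares were not tested. Knockout library 3 had the highest Wnt5a level and the lowest Wnt5a share. Its ligands summed to 33.46 FPKM, against 6.708 to 13.33 FPKM in the other libraries.

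Wnt4 and Wnt9b followed knockout library 3. Wnt4 had 0.383, 0.428 and 6.56 FPKM in the knockout libraries, against 0.194, 0.949 and 1.40 FPKM in the wild type libraries. Its log2 fold change of 0.47 ± 0.67 (SE, limma adjusted p = 0.828) turned to -0.34 without that library. Wnt9b had 0.180, 0.383 and 4.44 FPKM in the knockout libraries, against 0.424, 0.661 and 0.508 FPKM in the wild type libraries. Knockout libraries 1 and 2 lay below all 3 wild type libraries. Without knockout library 3, Wnt9b did not pass the filter on low values and was not tested. Wnt10a had 0.631, 0.679 and 0.607 FPKM in the knockout libraries, against 0.475, 1.16 and 0.547 FPKM in the wild type libraries. Porcn, the enzyme that attaches the lipid to Wnt proteins, had 1.17, 1.05 and 1.52 FPKM in knockout and 1.06, 0.956 and 1.37 FPKM in wild type, with overlapping groups and a log2 fold change of 0.08.

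**Figure D2:**
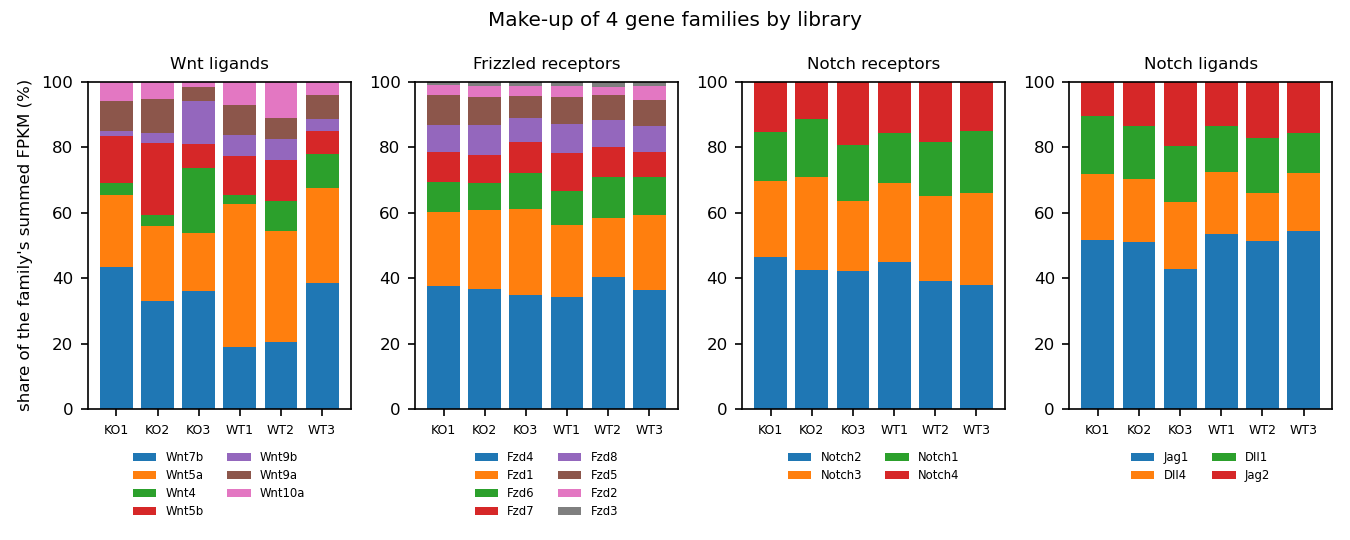
Share of each family's summed FPKM (vertical axis, %) in each library, for Wnt ligands, frizzled receptors, Notch receptors and Notch ligands, with LIGHT knockout (KO) left of wild type (WT). The make-up of the Wnt ligands varied between libraries, with Wnt5a at 17.9 to 23.0% in knockout and 28.9 to 43.4% in wild type, while Fzd4 held 34.7 to 37.5% in knockout and 34.3 to 40.4% in wild type. Shares depend on every gene of a family, and the FPKM of Wnt5a overlapped between genotypes. The shares of Dll4 also did not overlap, and shares were not tested.

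Among the receptors of Wnt signals, no gene had an unadjusted p under 0.05. Of 8 frizzled genes and the coreceptors Lrp5 and Lrp6, 2 had a positive log2 fold change and 8 a negative one, all between -0.29 and 0.18, although Fzd5 and Fzd8 lay so near 0 that they changed sign when FPKM were rescaled to 1 sum per library. Fzd4, which in the endothelium also binds the ligand norrin, was the most abundant, with 21.7, 22.2 and 22.7 FPKM in knockout libraries and 19.9, 25.6 and 25.1 FPKM in wild type libraries. It held 36.3 ± 1.41% of the summed frizzled FPKM in knockout and 37.1 ± 3.07% in wild type (SD, n = 3 each). Fzd1 followed, with 13.2, 14.6 and 17.3 FPKM in knockout and 12.7, 11.3 and 15.6 FPKM in wild type. Fzd5, Fzd6, Fzd7 and Fzd8 lay together between 4.41 and 8.05 FPKM with overlapping ranges, and Fzd2 and Fzd3 were lowest at 0.672 to 2.93 FPKM.

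Lrp6, the coreceptor that is phosphorylated on Wnt binding, had 14.4, 15.0 and 18.5 FPKM in knockout libraries, against 14.3, 13.7 and 13.9 FPKM in wild type libraries. The groups did not overlap, but knockout library 1 and wild type library 1 differed by less than the spread within either group. Its log2 fold change was 0.17 ± 0.11 (SE, limma adjusted p = 0.656) and 0.07 without knockout library 3. Lrp5 had 7.06, 7.07 and 6.70 FPKM in knockout and 6.68, 7.52 and 8.43 FPKM in wild type, with overlapping groups. Fzd6, a frizzled of planar cell polarity, had 5.36, 5.11 and 7.19 FPKM in knockout and 6.13, 7.98 and 8.05 FPKM in wild type. Its log2 fold change of -0.29 ± 0.16 (SE) had a limma p of 0.111 before and 0.613 after adjustment, and without knockout library 3 it was -0.42 with a p of 0.0210 before and 0.655 after adjustment.

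The secreted antagonists all had positive fold changes, and most of that came with knockout library 3. Sfrp proteins bind Wnt ligands outside the cell, and Dkk proteins bind the coreceptors, although Dkk3 is an outlying member of its family. The median log2 fold change of the 5 antagonists was 0.47, and 0.03 without knockout library 3. Sfrp1 had 6.30, 8.02 and 34.4 FPKM in knockout libraries, against 6.95, 7.11 and 6.90 FPKM in wild type libraries. The wild type values lay close together, and knockout library 3 had 4.29 times the level of the highest other library. Its log2 fold change was 0.73 ± 0.56 (SE, limma adjusted p = 0.692) and 0.02 without that library. Sfrp4 had 0.210, 1.28 and 6.02 FPKM in knockout and 0.669, 0.409 and 0.832 FPKM in wild type. The knockout libraries spanned the lowest and the highest of its 6 values, and its log2 fold change was 0.72 with all libraries and 0.03 without knockout library 3. Sfrp2 had 1.62, 2.61 and 3.80 FPKM in knockout, against 2.07, 1.67 and 1.08 FPKM in wild type, and its groups overlapped. Its log2 fold change of 0.47 ± 0.25 (SE, limma adjusted p = 0.612) was 0.25 without knockout library 3.

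Dkk2 had 6.77, 10.2 and 9.62 FPKM in knockout libraries, against 7.84, 7.70 and 8.34 FPKM in wild type libraries. Dkk3 had 4.17, 4.90 and 6.65 FPKM in knockout and 4.14, 4.73 and 6.01 FPKM in wild type. Neither separated the genotypes, and Dkk2 made up 62.9 ± 4.30% of the summed FPKM of this pair in knockout and 61.9 ± 3.65% in wild type (SD, n = 3 each).

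Knockout library 3 was over 2 times the highest of the other 5 libraries in 6 of the 46 members, which is 13% of them, beside 2.82% of all 13026 genes. This comparison was made after the values were seen and has no test. The 6 were the ligands Wnt4, Wnt7b and Wnt9b, the antagonists Sfrp1 and Sfrp4, and Axin2. Axin2, a scaffold of the destruction complex that is also a target of beta-catenin, had 0.166, 0.294 and 1.16 FPKM in knockout libraries, against 0.203, 0.193 and 0.416 FPKM in wild type libraries. It was the 1 member with a group mean under 0.5 FPKM, so it is listed through the knockout group alone, and it did not pass the filter on low values. In the same library the collecting duct water channel Aqp2 stood at 325 FPKM, against 38.5 and 74.5 in the other knockout libraries and 41.8, 89.5 and 73.3 in wild type libraries. In bulk tissue, more cells of a type and more RNA per cell cannot be told apart.

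**Figure D3:**
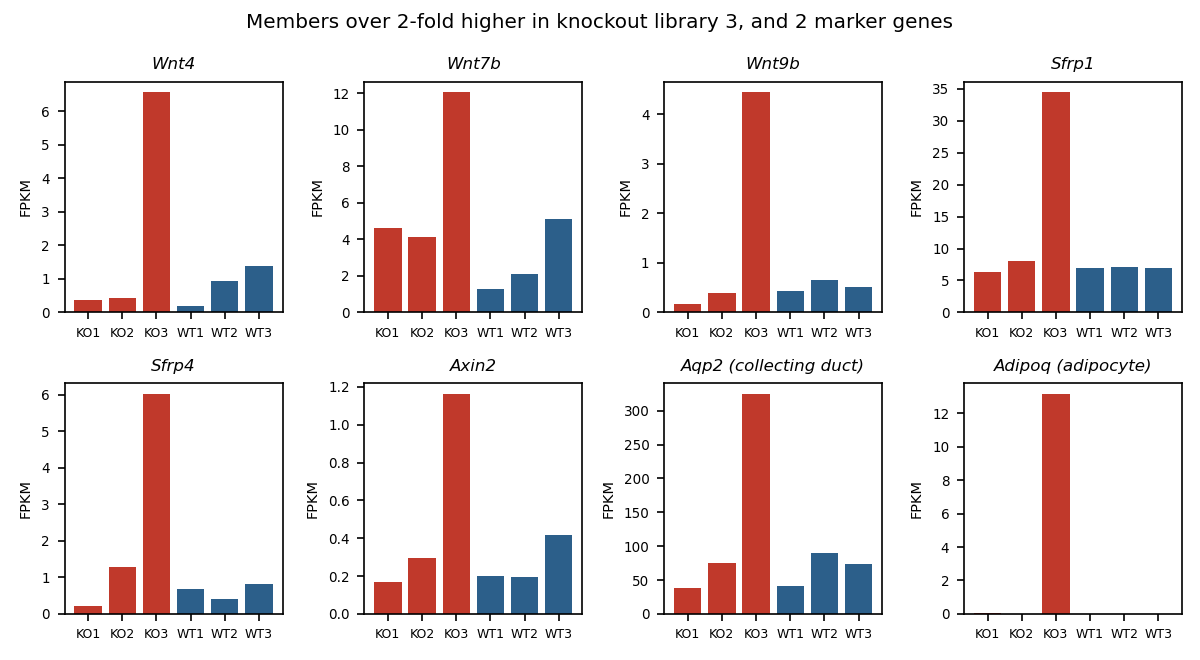
FPKM in each library (vertical axes from 0) of the 6 members over 2-fold higher in knockout library 3 (KO3) than in any other library, and of Aqp2 and Adipoq as markers of collecting duct and adipocytes. KO3 is the tallest bar in all 8 panels, at 6.56 FPKM for Wnt4, 34.4 FPKM for Sfrp1, 325 FPKM for Aqp2 and 13.1 FPKM for Adipoq. Axin2 and Adipoq, with wild type means of 0.271 and 0 FPKM, are listed through the knockout group alone.

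Among the cytoplasmic Wnt pathway genes (axins, dishevelleds, Apc and Ctnnb1), the 6 tested all had log2 fold changes below 0, with a median of -0.07. Of all genes tested, 47.9% were above 0. The log2 fold changes of Axin1, Dvl1 and Dvl3 lay within 0.04 of 0 and changed sign when FPKM were rescaled to 1 sum per library. Ctnnb1, which encodes beta-catenin, was the most abundant member, with 84.9, 88.1 and 74.9 FPKM in knockout libraries and 90.5, 86.5 and 101 FPKM in wild type libraries. The groups overlap through knockout library 2 and wild type library 2. Its log2 fold change was -0.16 ± 0.11 (SE, limma adjusted p = 0.653) and -0.10 without knockout library 3.

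Apc, the tumour suppressor that helps hand beta-catenin over for degradation, was the 1 member that was lower in the knockout with no overlap. Apc had 3.82, 3.89 and 4.11 FPKM in knockout libraries, against 7.16, 4.28 and 7.99 FPKM in wild type libraries. The knockout values were tightly grouped, and wild type library 2 lay close to them. The group means were 3.94 ± 0.151 FPKM in knockout and 6.48 ± 1.94 FPKM in wild type (SD, n = 3 each). Its log2 difference was -0.56 ± 0.20 (SE), and its limma p was 0.0281 before and 0.592 after adjustment. With 1 library left out at a time it ranged from -0.79 without wild type library 2 to -0.41 without wild type library 3.

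Dishevelled proteins carry the signal from frizzled to the destruction complex. Dvl1 led them, with 15.4, 17.4 and 16.5 FPKM in knockout and 15.3, 18.1 and 16.6 FPKM in wild type, and it held 70.7 ± 2.01% of their summed FPKM in knockout and 70.4 ± 3.32% in wild type (SD, n = 3 each). Dvl3 lay between 4.94 and 5.76 FPKM and Dvl2 between 1.22 and 2.09 FPKM over the 6 libraries. Dvl2 shares exon sequence with Acadvl on the opposite strand, so its value is uncertain where strand was not used. Axin1, the constitutive scaffold of the destruction complex, had 11.1, 13.1 and 13.6 FPKM in knockout and 11.8, 12.7 and 14.1 FPKM in wild type.

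The TCF factors that bind DNA for beta-catenin were all low. Tcf7l1, mainly a repressor, had 1.94, 2.57 and 3.19 FPKM in knockout libraries, against 1.73, 2.10 and 3.06 FPKM in wild type libraries. Tcf7l2 had 1.24, 1.39 and 1.18 FPKM in knockout and 1.44, 1.32 and 1.36 FPKM in wild type, and Tcf7 had 1.21, 0.962 and 0.790 FPKM in knockout and 0.961, 0.948 and 1.49 FPKM in wild type. All 3 overlapped between genotypes, with log2 fold changes from -0.10 to 0.12.

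**Figure D4:**
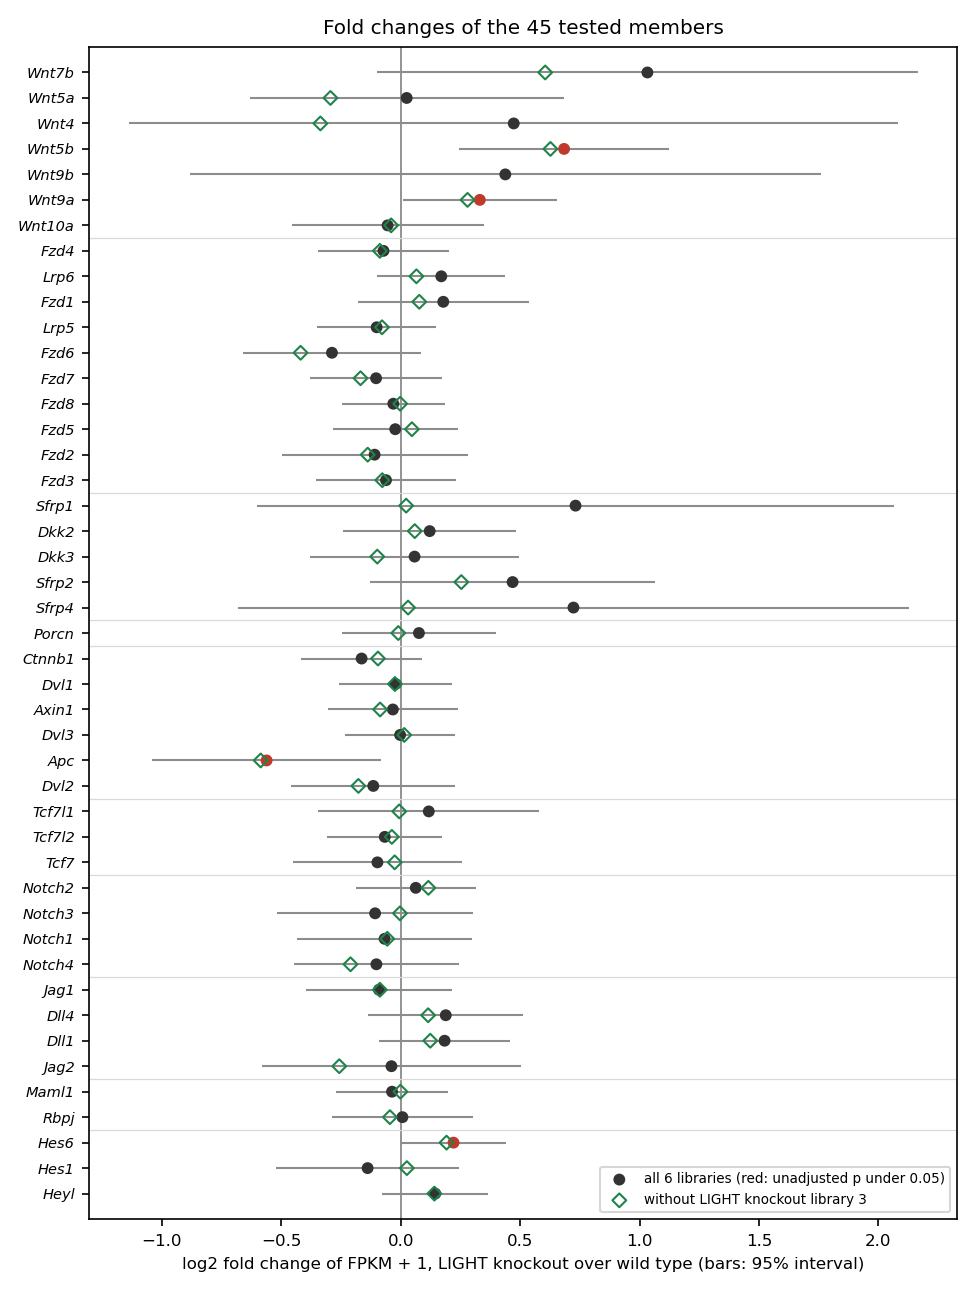
Log2 fold change of FPKM + 1, LIGHT knockout over wild type (horizontal axis), of the 45 tested members in the order of their roles, with 95% intervals from limma as bars. Filled points use all 6 libraries (red for an unadjusted p under 0.05) and open diamonds leave out knockout library 3, where Sfrp1 lies at 0.02 beside 0.73, Wnt4 at -0.34 beside 0.47 and Wnt5b at 0.63 beside 0.68.

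The 4 Notch receptors overlapped between genotypes, and their log2 fold changes lay between -0.11 and 0.06. Notch2, a receptor of the developing and injured tubule, was the most abundant with 8.50, 8.07 and 7.32 FPKM in knockout libraries and 7.69, 6.82 and 8.26 FPKM in wild type libraries. It held 43.7 ± 2.34% of the summed Notch receptor FPKM in knockout and 40.7 ± 3.77% in wild type (SD, n = 3 each). Notch3, a receptor of pericytes and smooth muscle, had 4.27, 5.43 and 3.69 FPKM in knockout and 4.08, 4.52 and 6.08 FPKM in wild type. Markers of smooth muscle and pericytes summed to 147.2, 152.0 and 126.5 FPKM in knockout and 159.5, 252.7 and 376.3 FPKM in wild type. Of these 5 markers, 3 (Myh11, Cnn1 and Rgs5) had a positive log2 fold change. The other 2, Acta2 and Tagln, made up most of each sum. Both were lower at an unadjusted limma p under 0.05, beside 3.74% of all genes tested, and none passed adjustment. The part of these markers in the level of Notch3 was not tested. Notch1 had 2.71, 3.34 and 2.93 FPKM in knockout and 2.65, 2.90 and 4.13 FPKM in wild type. Notch4, found mainly in endothelium, had 2.82, 2.16 and 3.36 FPKM in knockout and 2.66, 3.19 and 3.25 FPKM in wild type, so Notch1 and Notch4 were not separated in level.

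Of the Notch ligands, Jag1 made up 51.6, 51.0 and 42.7% of their summed FPKM in knockout libraries and 53.3, 51.4 and 54.5% in wild type libraries. Its level was 5.92, 6.83 and 6.30 FPKM in knockout and 6.07, 6.34 and 8.22 FPKM in wild type. Dll4, an endothelial ligand, had 2.32, 2.58 and 3.02 FPKM in knockout, against 2.16, 1.82 and 2.63 FPKM in wild type. Its shares were 20.2, 19.3 and 20.5% in knockout and 19.0, 14.7 and 17.5% in wild type, without overlap, while its levels overlapped. Dll1 had 2.04, 2.15 and 2.51 FPKM in knockout, against 1.60, 2.07 and 1.86 FPKM in wild type. Both Delta-like genes had a higher mean in the knockout, with log2 fold changes of 0.19 ± 0.14 and 0.18 ± 0.12 (SE), and neither passed (limma adjusted p = 0.677 and 0.641). Jag2 had 1.20, 1.84 and 2.94 FPKM in knockout and 1.56, 2.10 and 2.37 FPKM in wild type, with knockout values below and above all wild type values.

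The nuclear partners of Notch overlapped between genotypes. Rbpj, the DNA-binding factor of the pathway, had 4.32, 4.18 and 4.85 FPKM in knockout libraries and 3.85, 4.26 and 5.22 FPKM in wild type libraries, a log2 fold change of 0.01 with a 95% interval of -0.29 to 0.30. Maml1, the coactivator that joins it, had 5.97, 5.92 and 5.46 FPKM in knockout and 5.46, 5.93 and 6.51 FPKM in wild type, a log2 fold change of -0.04 with an interval of -0.27 to 0.20. Rbpj shares 11.45% of its 31-base words with transcripts of other genes, the largest share among the members.

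Of the HES and HEY genes, Hes6 and Heyl did not overlap between genotypes and Hes1 did. Hes6, which counteracts the repressor Hes1, had 19.4, 17.7 and 19.7 FPKM in knockout libraries, against 16.9, 16.5 and 14.9 FPKM in wild type libraries. Its group means were 18.9 ± 1.08 FPKM in knockout and 16.1 ± 1.05 FPKM in wild type (SD, n = 3 each). The log2 difference was 0.22 ± 0.09 (SE), and its limma p was 0.0496 before and 0.592 after adjustment. Without knockout library 3 its log2 fold change was 0.19 with an unadjusted p of 0.0914. Heyl had 1.92, 1.98 and 1.98 FPKM in knockout libraries, against 1.68, 1.60 and 1.76 FPKM in wild type libraries. The difference was small but the values were tight, with a log2 fold change of 0.14 ± 0.09 (SE, limma adjusted p = 0.653) and 0.14 without knockout library 3. Hes1, a direct target of Notch, had 17.02, 15.9 and 11.4 FPKM in knockout libraries, against 15.8, 14.8 and 17.9 FPKM in wild type libraries. Knockout library 3 was the lowest of the 6, and the log2 fold change of Hes1 was -0.14 ± 0.16 (SE) with all libraries and 0.03 without that library.

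By position, 4 members lie on chromosome 17 with Tnfsf14, at distances of 22.6 Mb for Notch4, 25.0 Mb for Notch3, 31 Mb for Axin1 and 41.8 Mb for Dll1 (mm10). None of these 4 had an unadjusted p under 0.05. Wnt5b lies on chromosome 6 at 119432531 to 119544347, Wnt9a on chromosome 11 at 59306928 to 59333552 and Hes6 on chromosome 1 at 91411483 to 91414038. Apc lies on chromosome 18 at 34220924 to 34322552.

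Of 111 further genes listed for both pathways, 97 were in the table and 95 were tested, with 41 above and 54 below 0. None passed a limma adjusted p under 0.05. At an unadjusted p under 0.05 there were 3, which is 3.16% of them, beside 8.08% of all genes tested. Celsr2, a cadherin of planar cell polarity, was higher, with 7.23, 7.36 and 10.5 FPKM in knockout libraries and 5.82, 4.87 and 6.35 FPKM in wild type libraries (limma adjusted p = 0.592). Ror1, a receptor for Wnt5a, was lower, with 3.19, 2.84 and 2.52 FPKM in knockout and 4.30, 3.92 and 3.29 FPKM in wild type (limma adjusted p = 0.592). Psenen, a subunit of the gamma-secretase that cleaves Notch, was lower, with 28.7, 33.9 and 27.0 FPKM in knockout and 41.8, 38.1 and 33.0 FPKM in wild type (limma adjusted p = 0.592).

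Among 14 genes known as Wnt targets in various tissues, 13 were tested, with 3 above and 10 below 0 and a median log2 fold change of -0.18. Knockout library 3 held the lowest value in 7 of the 14, beside 3917 of all 13026 genes, and without it the median was 0.02 with 7 above and 6 below 0. In 2 of the 14, Apcdd1 and Tnfrsf19, this library held the highest value, beside 3925 of all 13026 genes. Axin2, a target of beta-catenin outside this list, was also highest there, at 1.16 FPKM. Tnfrsf19 and Axin2 are among the 13026 genes through knockout library 3 alone, so their highest values there are no separate observation. Myc had 13.5, 12.8 and 3.21 FPKM in knockout libraries, against 10.4, 10.8 and 11.4 FPKM in wild type libraries. Plaur, which encodes the urokinase receptor, had 21.7, 18.2 and 5.93 FPKM in knockout and 20.3, 18.4 and 23.4 FPKM in wild type. In both genes knockout libraries 1 and 2 lay in, above or close to the wild type range, and knockout library 3 was far below it. Tubular injury markers, among them Havcr1 at 596, 415 and 143 FPKM in knockout and 895, 770 and 833 FPKM in wild type, had their lowest value in that library in 7 of 9 cases. Their part in the levels of the Wnt targets was not tested.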

How the data were processed

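Kidney RNA of 3 LIGHT knockout and 3 wild type libraries was analysed, grouped by sample title. The authors deposited FPKM per gene. The submitters' processing notes list mm10 as the build and StringTie, HISAT2 and FastQC as tools. Versions, annotation and the use of strand in counting are not given in the sources used here. FPKM hold no read counts, so depth and counting error are unknown and no count model was used. In every row the higher group mean was at least 0.50043 FPKM, while the lower one could fall below it. A gene low in either group is then listed through the other group alone.

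A gene was tested if its mean over the 6 libraries reached 0.5 FPKM. Tests were run on log2(FPKM + 1) with limma 3.58.1 under R 4.3.3, with a mean-variance trend, two-sided, with Benjamini-Hochberg adjustment over the 12836 genes tested and a threshold of 0.05. Fold changes on this scale understate the change of low genes. With 3 libraries a group, the smallest two-sided p of an exact permutation test is 0.1. Separate mice for the libraries are not stated in the labels, and the spread behind each p-value may be technical.

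The members and the lists were chosen with earlier results of these data known. Values per library are given for members with an unadjusted p under 0.05 or groups that do not overlap, for the highest member of each role and for roles of at most 6 members. The remaining Wnt ligands, Fzd1, Fzd6, Lrp5, Dvl1, Axin1, Axin2 and the genes outside the members other than Celsr2, Ror1 and Psenen were chosen after their values were seen. Markers of kidney cell types were used only as values beside the members. Positions and exon overlaps are from GENCODE M21, on the same assembly as mm10, which matched 13005 of 13026 identifiers. Promoter sequences are from RefSeq on GRCm38.p6.

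The alternatives tried were other pseudocounts, filters, scalings and variance models, the replicate number as a block, and each library left out in turn.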

Additional observations from a re-analysis of the deposited data

How the results depend on the processing

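No member passed the limma adjusted threshold under any of 17 alternatives, and the lowest adjusted p of a member was 0.0895. Of 761 member values under the alternatives, 707 kept their direction and 54, in 25 members, changed sign. Over all genes the count passing was 15, and it was 52 with library weights and 0 with the replicate block, where 884 genes and 4 members had an unadjusted p under 0.05. Between libraries of the same replicate number, the deviations from the group means had correlations of 0.146, -0.133 and -0.019. These cannot decide whether the libraries were paired, because the knockout mean includes knockout library 3, which stood apart. With 1 library left out at a time, the count over all genes ranged from 0 (without knockout library 2, wild type library 1 or wild type library 3) to 11, members whose groups did not overlap from 8 to 11 (beside 23.9 to 33.3% of all genes), and members with an unadjusted p under 0.05 from 1 to 5 (beside 4.39 to 12.8%). The 11 and the 5 were both without knockout library 1, where the shares of all genes were 33.3% and 12.8%. The members' median log2 fold change then ranged from -0.0453 to 0.0516. Smaller groups separate more readily, and the share of all genes whose groups did not overlap was 16.6% with all libraries. The cause of the other shifts was not tested.

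Rescaling FPKM to 1 sum per library gave log2 fold changes of 0.005 for Axin1, 0.018 for Dvl1, 0.036 for Dvl3, 0.012 for Fzd5 and 0.003 for Fzd8. Library weights gave 0.017 for Axin1, 0.007 for Dvl1, 0.014 for Fzd2, 0.082 for Fzd5, 0.043 for Fzd8, 0.016 for Hes1, 0.028 for Jag1, 0.004 for Maml1, 0.083 for Notch1, 0.138 for Notch3, -0.017 for Rbpj, -0.192 for Wnt4, -0.167 for Wnt5a and -0.115 for Wnt9b. With 1 library left out at a time, the sign changed within these ranges: Axin1 -0.091 to 0.049, Dkk3 -0.098 to 0.184, Dvl1 -0.079 to 0.036, Dvl2 -0.193 to 0.006, Dvl3 -0.051 to 0.026, Fzd2 -0.235 to 0.052, Fzd3 -0.126 to 0.016, Fzd5 -0.064 to 0.047, Hes1 -0.244 to 0.026, Jag1 -0.164 to 0.028, Jag2 -0.257 to 0.162, Maml1 -0.09 to 0.02, Notch1 -0.165 to 0.08, Notch2 -0.003 to 0.119, Notch3 -0.231 to 0.033, Notch4 -0.21 to 0.021, Porcn -0.01 to 0.156, Rbpj -0.072 to 0.107, Tcf7 -0.176 to 0.019, Tcf7l1 -0.008 to 0.277, Wnt10a -0.158 to 0.117, Wnt4 -0.336 to 0.889 and Wnt5a -0.294 to 0.239. Depth is unknown, so counting error in the lowest members, such as Wnt4, Wnt9b and Axin2, could not be stated.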

Other observations

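A few further pathway genes had levels that the genotype did not order. Pygo2, a cofactor of beta-catenin, had 7.61, 1.40 and 7.86 FPKM in knockout libraries, against 6.16, 2.04 and 1.72 FPKM in wild type libraries, with high and low libraries in both groups. Rspo3, a secreted enhancer of Wnt signalling, had 0.344, 0.337 and 2.29 FPKM in knockout and 0.212, 0.605 and 0.565 FPKM in wild type. Tnfrsf19, listed as a Wnt target, had 0.0743, 0.0142 and 2.56 FPKM in knockout and 0.0851, 0.113 and 0.102 FPKM in wild type. Rspo3 and Tnfrsf19 were both highest in knockout library 3, as were the 6 Wnt genes named with that library. Both had wild type means under 0.5 FPKM and low values in knockout libraries 1 and 2. They are therefore among the genes measured through knockout library 3 alone, and their highest values there are no separate observation. Pygo2, Rspo3 and Tnfrsf19 were chosen after their values were seen.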
